A study of Mus musculus with 25 samples.

Results

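The genes described here encode the proteins of the cytosolic ribosome. They were taken from the gene-level count table of sorted mouse group 1 innate lymphoid cells (G1-ILCs) as every protein-coding row whose GENCODE symbol starts with Rpl or Rps followed by a digit, or is Rplp0, Rplp1, Rplp2 or Rpsa, leaving out the Rps6k kinases. This rule found 92 of the 46078 rows. Of these, 77 are core ribosomal proteins, 46 of the large 60S subunit including the P stalk and 31 of the small 40S subunit, and the other 15 are paralogs, copies annotated as protein coding and Rps19bp1, a protein that binds Rps19. The rule takes no symbol from outside these patterns, so genes such as Fau and Rack1, which also encode ribosomal proteins, are described separately below. All samples came from wild-type C57BL/6 mice, and every cell was sorted as CD3- NK1.1+ NKp46+. The 8 groups were fetal liver (FL) G1-ILCs at E18.5 (embryonic day), gated CD49a int CD49b int (3 samples), and, all from mice of 8 weeks, adult liver (AL) 7R- ILC1s, gated CD49a+ CD49b lo IL-7R- (4 samples), AL 7R+ ILC1s, with the same gate but IL-7R+ (3 samples), AL NK cells, gated CD49a- CD49b+ (2 samples), bone marrow (BM) immature ILC1s (iILC1s), gated CD49a+ CD49b lo with no IL-7R gate (3 samples), BM NK cells, gated CD49a- CD49b+ (3 samples), small intestinal lamina propria (LPL) ILC1s, gated CD27+ IL-7R+ (4 samples), and salivary gland (SG) G1-ILCs, gated CD49a+ CD49b+ (2 samples). Per the study's methods, fetal and adult liver were dissociated mechanically and marrow was flushed out, whereas salivary gland and gut were digested with collagenase. Cells of adult liver, salivary gland and gut were also separated by centrifugation through Percoll, a step not given for fetal liver or marrow. Tissue or age and preparation therefore cannot be told apart where SG, LPL, FL or BM cells are compared with adult liver cells. The labels do not tie replicates to single mice, though the study calls them biological replicates, and p-values measure the spread between these samples.

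A ribosome is built from a small subunit that decodes the mRNA and a large subunit that joins amino acids, each made of ribosomal RNA and many proteins. The acidic proteins P1 and P2 sit on P0 as a lateral stalk that recruits translation factors. Ribosomal protein mRNAs begin with a C followed by a run of pyrimidines, the 5′ terminal oligopyrimidine (TOP) tract, through which LARP1 and the kinase mTOR hold back or release their translation, and MYC is known to raise transcription of ribosomal protein and ribosome assembly genes in growing lymphocytes. An mRNA level therefore does not give the amount of ribosome made from it.

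Sequence around the transcription start was available in RefSeq (GRCm38.p6) for 66 of the 92 genes. A run of 8 or more C or T lying between 25 bases before and 50 bases after the start, on the strand of the gene, was present in 50 of these 66 (75.8%), against 30.4% of all 27025 genes with an entry, and the median longest run was 10 bases against 6. The motif CCGGAAG, on either strand of the 300 bases around the start, was found in 26 of the 66 genes (39.4%) against 9.93% of all genes, CTCTTTC in 18 (27.3%) against 9.28%, and TATAAA in 7 (10.6%) against 15.7%. The run of C and T may overlap CTCTTTC. The following windows of 30 bases, 10 before and 20 from the annotated start on the strand of the gene, show the tract in core members with long and ordinary runs and in the paralogs and copies described below. Capitals mark the longest unbroken run of C and T inside the printed window.
Rpl35 (chr2:39005112-39005141, minus strand): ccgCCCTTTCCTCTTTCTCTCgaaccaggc
Rpl7a (chr2:26910797-26910826, plus strand): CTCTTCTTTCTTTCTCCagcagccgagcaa
Rplp2 (chr7:141447641-141447670, plus strand): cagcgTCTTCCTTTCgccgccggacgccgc
Rps27 (chr3:90213629-90213658, minus strand): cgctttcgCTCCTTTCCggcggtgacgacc
Rps27rt (chr9:114982720-114982749, minus strand): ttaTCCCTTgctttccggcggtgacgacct
Rps27l (chr9:66946076-66946105, plus strand): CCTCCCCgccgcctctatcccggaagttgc
Rpl22l1 (chr3:28805498-28805527, plus strand): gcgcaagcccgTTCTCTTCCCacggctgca
Rpl36al (chr12:69184048-69184077, minus strand): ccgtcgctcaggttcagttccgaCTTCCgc
Rpl7l1 (chr17:46782637-46782666, minus strand): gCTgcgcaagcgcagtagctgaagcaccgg
Over the wider span searched, the longest run is 21 bases in Rpl7a, of which the printed window holds 17, 18 in Rpl35, 10 in Rplp2 and 9 in Rps27. It is 9 bases in Rps27l, 10 in Rpl36al and 4 in Rpl7l1, of which the first 2 count among the genes with a run although their printed windows hold runs of only 7 and 5 bases. Rps27l has a second annotated start, whose longest run in a window of the printed size is 4 bases. A run found here is a description of these letters and not a mapped start of the mRNA.

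The libraries held 3752189 to 7995906 counts on genes, and ribosomal protein genes took 1.23% to 2.67% of them. FL G1-ILC replicates 2 and 3 differed by little more than sampling noise (chi-square per degree of freedom 1.18, against 3.50 to 12.4 for the other replicate pairs), so their counts were summed and counted as 1 sample, here replicate 2, which leaves 24 samples from 25 libraries. All 8 markers of group 1 ILC identity were detected, Il7r at 539 ± 49.7 CPM (a gene's counts over the scaled library size, n = 3) in AL 7R+ ILC1s and 1.71 CPM in AL 7R- ILC1s, Eomes at 470 CPM and 505 CPM in AL and BM NK cells, and Itga2 (CD49b) at only 11.5 CPM in SG G1-ILCs, which were gated as CD49b+. AL 7R- ILC1 replicate 2 had the lowest ribosomal protein share of all, and AL NK cells and SG G1-ILCs had 2 samples each. TMM scaling factors, which set the libraries to a common scale, were 0.774 to 0.793 in LPL ILC1s and 0.946 to 1.12 elsewhere, and the 20 highest genes took 11.5% to 12.1% of counts in LPL ILC1s and 6.92% to 10.5% elsewhere. Results on LPL ILC1s are therefore given with and without the factors.

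Summed over the 92 genes, ribosomal protein mRNA was highest in SG and FL G1-ILCs and lowest in the 3 adult liver groups. The sum was 25990 ± 669 CPM (mean ± SD after TMM scaling, n = 3) in FL G1-ILCs and 26250 ± 2737 CPM (n = 2) in SG G1-ILCs, and these groups overlapped. It was 13900 ± 1460 CPM in AL 7R- ILC1s, 14600 ± 842 CPM in AL 7R+ ILC1s and 14500 ± 96.2 CPM in AL NK cells, whose ranges also overlapped. Between these extremes lay BM iILC1s at 17220 ± 1052 CPM and BM NK cells at 19000 ± 1535 CPM, overlapping each other and all above the highest adult liver sample (15191 CPM). LPL ILC1s, at 17980 to 22458 CPM, overlapped both bone marrow groups. Without the scaling factor LPL ILC1s ran from 14253 to 17743 CPM and overlapped AL 7R+ ILC1s at 14772 to 16560 CPM, whereas FL G1-ILCs, at 25066 to 26454 CPM, and SG G1-ILCs, at 23080 to 26673 CPM, remained above every other sample. Because these are bulk libraries, fewer cells of a type and less RNA per cell cannot be told apart, and CPM gives a share of the mRNA and not its amount per cell.

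**Figure D1:**
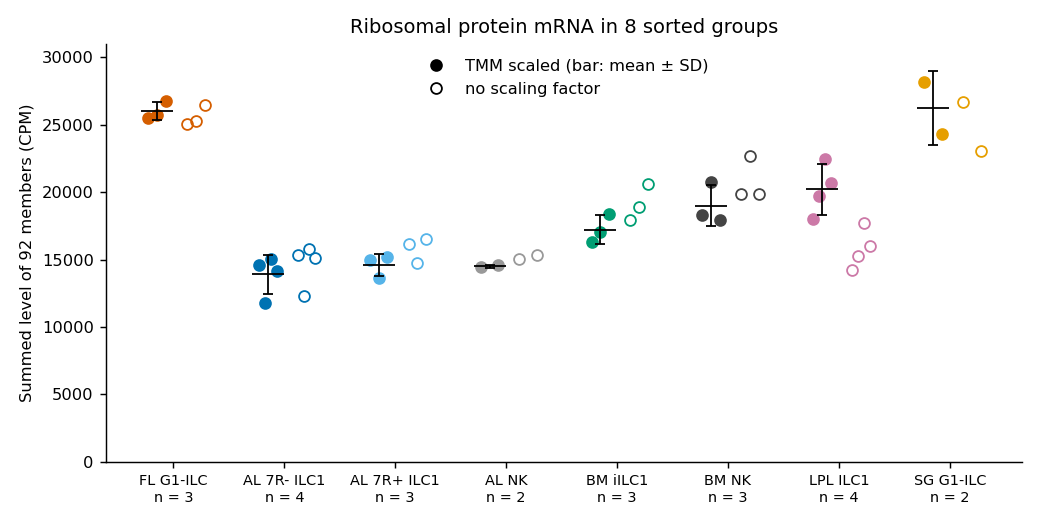
Summed level of the 92 ribosomal protein genes in each sample, in CPM after TMM scaling, with 1 filled point a sample and the mean and SD of each of the 8 groups as bars, and open points for the same samples without the scaling factor. The scaled FL and SG samples lie between 24318 and 28188 CPM and the adult liver samples between 11767 and 15191 CPM; LPL ILC1s lie wholly above the adult liver only with the scaling factor.

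Levels differed widely between members. Per kb of merged exon length, the highest mean level over all samples was that of Rps3a1 of the 40S subunit (646 CPM per kb), and Rpl13 of the 60S subunit was also among the highest (493.1 CPM per kb). The lowest were Rpl36-ps4, Rpl10l and Rpl3l, with 1, 6 and 25 counts over all libraries. Rpl10l and Rpl3l are known as paralogs of Rpl10 and Rpl3 that are used mainly in testis and in striated muscle. With Rpl9-ps1 (19 counts), Rpl39l (62 counts) and Rps12-ps3 (133 counts) they make up the 6 members that did not pass the filter on low counts. The other 86, all 77 core members among them, were tested within the 14123 genes that passed it.

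Many ribosomal protein mRNAs have processed copies in the genome, and reads on such genes may be split between copies or dropped. At least 1 copy annotated as a pseudogene, with 97% identity over 150 bases or more, was found for 72 of the 92 genes. The median was 2 such copies, with up to 27 for Rpl21. Copies that are themselves members, such as Rps27rt for Rps27, are left out of these counts. The copies held a median of 4.55% of the counts of a gene and its copies together, but more than those of the gene itself for Rpl23a (55.9%), Rpl24 (76.4%), Rpl36a-ps1 (83.9%) and Rps12-ps3. The core gene Rpl24 was listed at a mean of only 2.31 CPM, with 261 counts over all libraries against 843 on its copies. Of its exon bases 47.0% lie under other genes, the largest overlap being with Gm28037 on the same strand, so the level of Rpl24 is not interpretable. For Rpl35 66.2% of the exon bases lie under other genes, the largest overlap being with Wdr38 on the other strand. For Rpl23a it is 62.3%, the largest overlap being with Tlcd1 on the other strand. The counting is not stated to use strand, so the values of Rpl35 and Rpl23a may include reads of an overlapping gene or lack reads that were dropped.

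Comparing the 8 groups in one test, 84 of the 86 members differed in level (edgeR quasi-likelihood F test, adjusted p under 0.05), against 77.7% of all genes tested, and Rpl24 (adjusted p = 0.172) and Rpl36a-ps1 (adjusted p = 0.664) did not pass. Rplp0, which anchors the stalk, gave the largest F among the members (66.8, adjusted p = 1.52e-13). Its samples stood at 1039 to 1124 CPM in FL G1-ILCs, 985 to 1179 CPM in LPL ILC1s and 805 to 929 CPM in SG G1-ILCs, against 484 to 563 CPM in the 3 adult liver groups.

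FL G1-ILCs were compared with AL 7R- ILC1s, the adult liver ILC1s that like them lack IL-7R, to ask how the fetal cells differ. Percoll separation is given for the adult cells alone, so age and preparation cannot be told apart. Of the 86 members, 77 were higher in FL G1-ILCs and 0 were lower, where 22.4% of all genes tested were higher and 20.2% lower. The median log2 fold change was 0.93, a 1.91-fold difference, against -0.06 over all genes, and it was alike in the 60S (0.93, 43 of 46 higher) and 40S subunits (0.94, 29 of 31 higher). At an unadjusted p of 0.05 80 were higher and 0 lower, and DESeq2 called 75 higher and 0 lower. In 75 members the fetal and adult samples did not overlap, which held for 47.2% of all genes. The difference was mostly below 2-fold, since only 30 of the 77 exceeded it, where 21.6% of all genes did so in either direction.

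The largest difference was in Rps2, a 40S protein at the mRNA entry channel (chr17:24718116-24721929). Its level was 660, 716 and 764 CPM in FL G1-ILCs and 196, 231, 188 and 234 CPM in AL 7R- ILC1s. The groups lay far apart, with a log2 fold change of 1.75 ± 0.11 (SE, adjusted p = 2.71e-12). The fetal samples also lay above those of SG G1-ILCs, at 514 and 504 CPM. Rps19, a 40S protein known for its mutations in Diamond-Blackfan anemia, was higher by 1.40 ± 0.11 (adjusted p = 5.31e-11). It stood at 612, 500 and 588 CPM in the fetal and 204, 177, 247 and 230 CPM in the adult samples. Rpl35, a 60S protein at the exit of the peptide tunnel, was higher by 1.43 ± 0.15 (adjusted p = 1.24e-08), at 158 to 212 CPM against 53.2 to 82.9 CPM.

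The 9 members that were not called in this comparison included a pair of related genes. Rps27, a zinc-binding 40S protein (chr3:90212522-90213651), stood at 130, 108 and 155 CPM in FL G1-ILCs and 165, 98.2, 195 and 157 CPM in AL 7R- ILC1s, so the groups overlapped (log2 fold change -0.23 ± 0.17, adjusted p = 0.273). Rps27rt, a single-exon retrotransposed copy of Rps27 on chromosome 9, also overlapped (-0.14 ± 0.22, adjusted p = 0.647), though as near-identical copies of each other the pair may share reads. Rps27l, the paralog with no near-identical copy, was by contrast higher by 1.36 ± 0.18 (adjusted p = 7.41e-07), at 144, 102 and 130 CPM against 43.3, 33.4, 63 and 55.6 CPM. Also not called were Rplp1 (0.32 ± 0.14, adjusted p = 0.0608), Rpl37a (0.33 ± 0.14, adjusted p = 0.0565), Rpl22l1 (0.41 ± 0.19, adjusted p = 0.0846), Rps21 (0.26 ± 0.23), Rps19bp1 (0.22 ± 0.23), Rpl24 and Rpl36a-ps1. The fetal samples also stood apart in 12 proliferation genes, whose summed level was 5260 to 5870 CPM against 281 to 427 CPM in AL 7R- ILC1s. BM NK cells had the next highest sum of these genes (804 to 2110 CPM), and SG G1-ILCs had 511 to 525 CPM. The part of proliferation in the fetal difference was not tested.

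**Figure D2:**
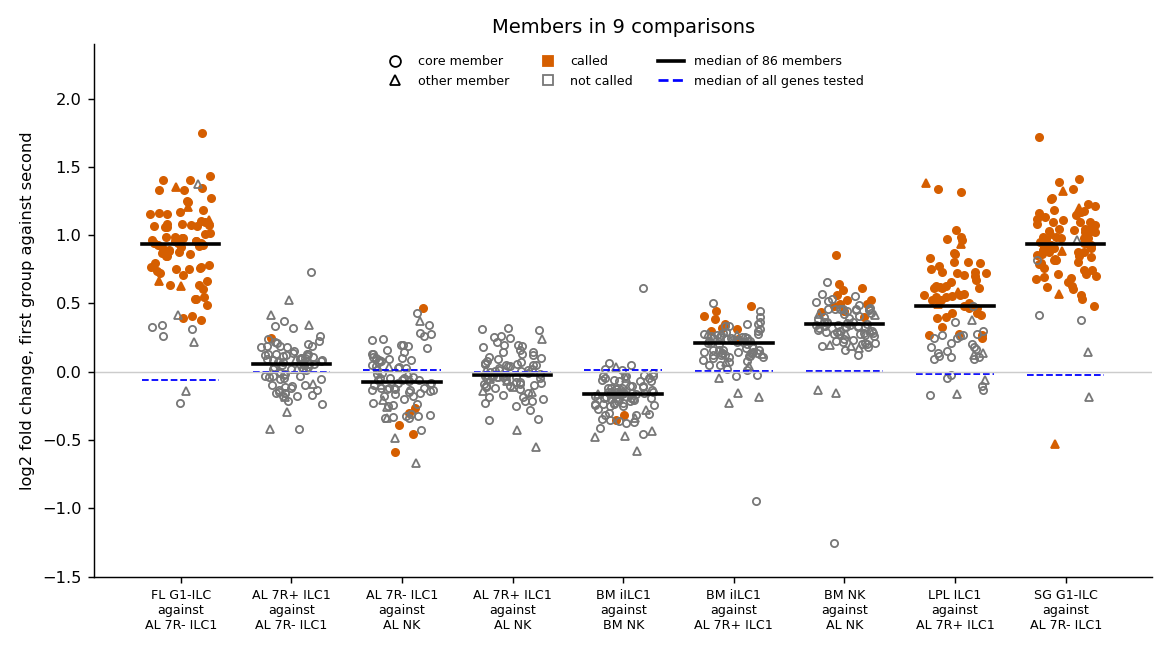
Log2 fold changes of the 86 tested members in each of the 9 comparisons, with 1 point a gene, the called ones (adjusted p under 0.05) marked, and the medians of the members and of all genes. The members' median is 0.93 in both the FL and the SG comparison and 0.48 in the LPL comparison, the last of which falls to 0.01 without the scaling factor.

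SG G1-ILCs were compared with the same AL 7R- ILC1 samples, so this comparison and the fetal one are not independent. Only the SG cells were released with collagenase, so a difference of cells cannot be told apart from one of preparation. In SG G1-ILCs 79 of the 86 members were higher and 1 was lower, where 17.8% of all genes tested were higher and 14.6% lower, and the median log2 fold change was again 0.93 (-0.03 over all genes). In 79 members the SG and AL 7R- samples did not overlap, against 48.8% of all genes, and 33 of the called members differed over 2-fold (19.0% of all genes). The counts were 67 higher without SG replicate 1, the sample with the larger sum, and 79 without replicate 2. Rpl35 differed most, at 265 and 196 CPM in SG G1-ILCs against 53.2 to 82.9 CPM (log2 fold change 1.72 ± 0.16, adjusted p = 3.28e-09). Rps19 (1.41 ± 0.12, adjusted p = 2.72e-10) and Rpl32, a 60S protein (1.39 ± 0.16, adjusted p = 1.17e-07), followed. Rps12, a 40S protein with 14 near-identical copies, was higher by 1.34 ± 0.26 (adjusted p = 0.000243), but its SG samples lay apart at 56.2 and 32.2 CPM, and without SG replicate 1 the adjusted p was 0.0570.

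Rps27 and Rps27rt, which were not called in the fetal comparison, were both higher in SG G1-ILCs. Rps27 stood at 338 and 292 CPM, above every other sample (log2 fold change 1.04 ± 0.18 against AL 7R- ILC1s, adjusted p = 4.93e-05), and Rps27rt was higher by 1.33 ± 0.24 (adjusted p = 7.23e-05). The member that was lower was Rpl7l1 (chr17:46773907-46782672), a relative of Rpl7 with no near-identical copy. It stood at 89.6 and 94.1 CPM in SG G1-ILCs and 136, 131, 133 and 132 CPM in AL 7R- ILC1s, without overlap (-0.53 ± 0.13, adjusted p = 0.00284). Rpl36al, an intronless paralog of Rpl36a, was not called, with 79.2 and 84.6 CPM against 68.3 to 81 CPM (0.15 ± 0.13, adjusted p = 0.439). The other members not called were Rpl38 (0.38 ± 0.20), Rps29 (0.42 ± 0.18), Rps19bp1 (-0.19 ± 0.27), Rpl24 and Rpl36a-ps1. SG samples also carried markers of other cells. The 14 myeloid markers summed to 950 to 1040 CPM (led by Cd14, with Ctsg, S100a8 and S100a9 at 0), against 85.7 to 101 CPM in AL 7R- ILC1s, and the 12 epithelial and gland markers summed to 326 to 650 CPM (led by Prol1, with Fabp2, Lypd8 and Smgc at 0) against 44 to 78.2 CPM. Both SG samples carried them, and their part in the ribosomal protein levels was not tested.

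LPL ILC1s were compared with AL 7R+ ILC1s, since both express IL-7R. Only the LPL cells were released with collagenase, so here too cells and preparation cannot be told apart. With TMM scaling 55 of the 86 members were higher and 0 lower, where 24.8% of all genes tested were higher and 26.2% lower, whereas without the scaling factor 12 were higher and 19 lower, where 13.8% of all genes were higher and 43.0% lower. The median log2 fold change of the members was 0.48 against -0.02 over all genes with scaling, and 0.01 against -0.49 without it, so the members stood about as far above the median gene either way and the direction of the family depends on the scale. In 58 members the groups did not overlap after scaling (48.4% of all genes), only 4 of those called differed over 2-fold (30.2% of all genes), and 31 of 46 members of the 60S and 20 of 31 of the 40S subunit were higher. DESeq2 called 65 higher and 0 lower, and no member was lower at an unadjusted p of 0.05 in edgeR.

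A few members were called higher in LPL ILC1s under each of 34 alternatives, the unscaled one included and a 2-fold limit left aside. Rpl22l1, the paralog of Rpl22 (chr3:28805436-28807424), stood at 39.2, 42.6, 63.8 and 45.8 CPM in LPL ILC1s and at 16.6 to 20.2 CPM in the 3 samples of AL 7R+ ILC1s. Its log2 fold change was 1.38 ± 0.20 (adjusted p = 1.94e-06), or 0.91 without scaling. Rpl34, a 60S protein (chr3:130726831-130730398), stood at 197, 185, 241 and 201 CPM against 79.5, 79.8 and 85.5 CPM. Outside LPL ILC1s its highest sample was SG replicate 1, at 189 CPM. Its fold change was 1.33 ± 0.13 (adjusted p = 4.00e-09), or 0.86 without scaling. Rpl35 (1.32 ± 0.15, adjusted p = 6.37e-08), Rpl38, a 60S protein linked to translation of Hox mRNAs (1.04 ± 0.18, adjusted p = 2.29e-05), and Rpl21 (0.99 ± 0.14, adjusted p = 9.09e-07) behaved alike, the last being under 2-fold. Rplp0 was also higher with scaling (0.97 ± 0.08, adjusted p = 5.49e-11) and without it (0.50, adjusted p = 3.37e-06). At the other end, Rpl37a and Rpsa had fold changes of -0.17 ± 0.14 and -0.14 ± 0.12 with scaling (adjusted p = 0.306 and 0.344). Without it both were called lower, at -0.64 and -0.61 (adjusted p = 0.000277 and 8.14e-05). Other cells' markers included those of ILC2s and ILC3s, which summed to 490 to 738 CPM in LPL ILC1s. In AL 7R+ ILC1s they summed to 242 to 255 CPM. On average the sums were 588.5 CPM and 248.3 CPM, of which Gata3 gave 436 CPM and 242 CPM. Markers other than Gata3 therefore added more in LPL ILC1s. The other cell type lists without overlap were those of hepatocytes (96.7 to 160 CPM against 15.8 to 16.7 CPM, led by Trf in both), epithelium and glands (24 to 44.6 CPM against 12.1 to 16.9 CPM, led by Epcam) and T cells (1350 to 1540 CPM against 1160 to 1230 CPM, led by Trbc1), and the proliferation genes summed to 611 to 780 CPM against 311 to 590 CPM. The part of these genes and cells in the levels was not tested.

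Between the bone marrow and the adult liver the members moved less. Percoll separation is given for the liver cells alone, so here too tissue and preparation cannot be told apart. BM NK cells had 13 members higher and 0 lower than AL NK cells, against 1.01% of all genes higher and 1.57% lower, and 53 higher members and 0 lower ones at an unadjusted p of 0.05. DESeq2 called 25 higher and 0 lower. The median log2 fold change was 0.35 (0.00 to 2 decimals over all genes), and in 73 members the groups did not overlap (34.8% of all genes). The count rested on few samples, with 3 higher without BM NK replicate 2 and 2 without either AL NK sample. Rps20, a 40S protein, differed most, at 115, 134 and 112 CPM in BM NK cells and 65.6 and 67.8 CPM in AL NK cells (log2 fold change 0.85 ± 0.15, adjusted p = 0.00155), and was called under each of 34 alternatives, though under a 2-fold limit 0 members were. Rpl10a (0.64 ± 0.16), Rps19 (0.61 ± 0.13) and Rps18 (0.60 ± 0.15) followed, all with adjusted p between 0.00749 and 0.0290. The proliferation genes moved in the same direction, with 5 of 12 higher in BM NK cells, and their part was not tested.

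BM iILC1s had 9 members higher and 0 lower than AL 7R+ ILC1s, against 4.23% of all genes higher and 3.84% lower, 29 and 0 at an unadjusted p of 0.05, and 13 and 0 with DESeq2. The count was 4 without AL 7R+ replicate 1, 2 without AL 7R+ replicate 2 and 4 without BM iILC1 replicate 3. Among those with the largest fold changes were Rps2 (0.48 ± 0.12, adjusted p = 0.0105), Rps19 (0.45 ± 0.12), Rpl14 (0.39 ± 0.09) and Rps3a1 (0.35 ± 0.09). Rps2 stood at 345, 351 and 368 CPM in BM iILC1s and 241, 238 and 283 CPM in AL 7R+ ILC1s, without overlap. The myeloid markers ran from 254 to 1610 CPM in BM iILC1s, highest in replicate 2, and 29.3 to 46.0 CPM in AL 7R+ ILC1s, and without that replicate 7 members were called higher. Whether the marrow and liver difference itself differed between ILC1s and NK cells was tested as an interaction, with 0 of the 86 members called (1.74% of all genes higher and 1.36% lower), 0 higher and 3 lower at an unadjusted p of 0.05, and 0 with DESeq2. The members' median on this log2 measure was -0.16 (-0.002 over all genes), with 7 of the 86 positive, where a negative value is a smaller marrow excess in ILC1s.

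Within one organ, few members were called between ILC1s and NK cells. In the bone marrow the members' median log2 fold change was -0.16 in iILC1s against NK cells (0.01 over all genes), with 6 of 86 positive. There 0 members were called higher and 2 lower in iILC1s, against 6.54% of all genes higher and 5.55% lower, with 0 and 15 at an unadjusted p of 0.05 and 0 and 3 with DESeq2. Rpl15, a 60S protein, was among them (-0.32 ± 0.11, adjusted p = 0.0473), and 0 members were called without BM iILC1 replicate 1 or 2, BM NK replicate 2, or FL replicate 1 or 2. In the adult liver 1 member was higher and 5 lower in 7R- ILC1s than in NK cells, against 9.94% of all genes higher and 10.5% lower. The same AL NK samples were set against BM NK cells above, so this comparison and that one are not independent. Rps20 was the higher one (0.47 ± 0.15, adjusted p = 0.0234), at 73 to 102 CPM against 65.6 and 67.8 CPM, and Rpl35 (-0.59 ± 0.17, adjusted p = 0.0127), Rps2 (-0.46 ± 0.13, adjusted p = 0.00955), Rpl29 (-0.39 ± 0.13) and Rps3a1 (-0.30 ± 0.09) were among the lower ones. These calls rested on single samples, with 3 lower without AL 7R- replicate 2 and 2 and 1 lower without AL NK replicate 1 and 2, and 4 higher without AL 7R- replicate 2. Between AL 7R+ ILC1s and AL NK cells no member was called (0 of 86 in either direction, against 7.95% of all genes higher and 7.61% lower; 2 higher and 3 lower at an unadjusted p of 0.05; 0 with DESeq2). Compared with 7R- ILC1s, 1 member was higher in 7R+ ILC1s and 0 lower, against 3.06% and 2.22% of all genes, with 9 and 1 at an unadjusted p of 0.05 and 2 and 0 with DESeq2. This was Rpl13 (0.24 ± 0.07, adjusted p = 0.0221), at 1107 CPM against 935 CPM on average, and it was not called without AL 7R- replicate 2 or AL 7R+ replicate 1 or 3.

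The makeup of the ribosomal protein mRNA was examined by testing each member's share of the summed ribosomal protein counts, a measure that does not change with the total or with the scaling factor. The share of 57 of the 86 members differed among the 8 groups, 51 of them core members. Taken against the same ribosomal protein total, 85.9% of all genes tested differed. A gene outside the family moves on this measure whenever that total does, so the percentages over all genes given here are no yardstick for the members. Among the members with the smallest p were Rpl34, Rps27, Rpl7l1, Rpl35, Rps2, Rplp0 and Rpl37a (F from 18.9 to 10.8, adjusted p from 5.31e-08 to 6.77e-06). Against AL 7R- ILC1s, 15 shares were higher and 18 lower in FL G1-ILCs (6.27% and 58.1% of all genes on this measure), and 7 higher and 10 lower in SG G1-ILCs (6.75% and 55.4%). Against AL 7R+ ILC1s, 17 were higher and 20 lower in LPL ILC1s (13.3% and 41.2%). The other comparisons gave at most 3 calls each: Rps20 and Rps29 higher and Rpl35 lower when AL 7R- ILC1s were set against AL NK cells (17.2% of all genes in either direction), Rps20 higher and Rpl7l1 lower in BM NK than in AL NK cells (13.4%), and Rps29 lower in AL 7R+ than in AL 7R- ILC1s (3.96%), of which Rps29 was named after its values were seen.

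Among these members, shares departed in FL, LPL and SG cells as follows. In FL G1-ILCs Rps27 made up 5.04 ± 0.79 per 1000 ribosomal protein counts, against 8.58 to 12.3 per 1000 on average in the other groups (log2 change of share -1.12 against AL 7R- ILC1s, adjusted p = 1.75e-07), and Rps2 made up 27.4 ± 1.36 per 1000 against 13.6 to 20.9 (0.82, adjusted p = 3.08e-06). Rpl37a, a small zinc-binding 60S protein, had shares of 11.3 per 1000 in FL G1-ILCs and 9.59 per 1000 in LPL ILC1s against 13.0 to 16.7 per 1000 elsewhere. In LPL ILC1s Rpl34 made up 10.2 ± 0.76 per 1000 against 5.02 to 6.83 elsewhere (0.87 against AL 7R+ ILC1s, adjusted p = 1.04e-06). Rplp0 reached 53.0 ± 2.38 per 1000 there against 33.0 to 41.4 (0.50, adjusted p = 2.98e-05). In SG G1-ILCs Rpl7l1 made up 3.52 ± 0.49 per 1000 against 6.35 to 10.6 (-1.45 against AL 7R- ILC1s, adjusted p = 2.61e-07). Rpl35 had a share that was higher in all 3 of these comparisons (0.54 in FL, 0.80 in SG and 0.84 in LPL cells, adjusted p = 0.000893, 4.61e-05 and 7.03e-06).

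**Figure D3:**
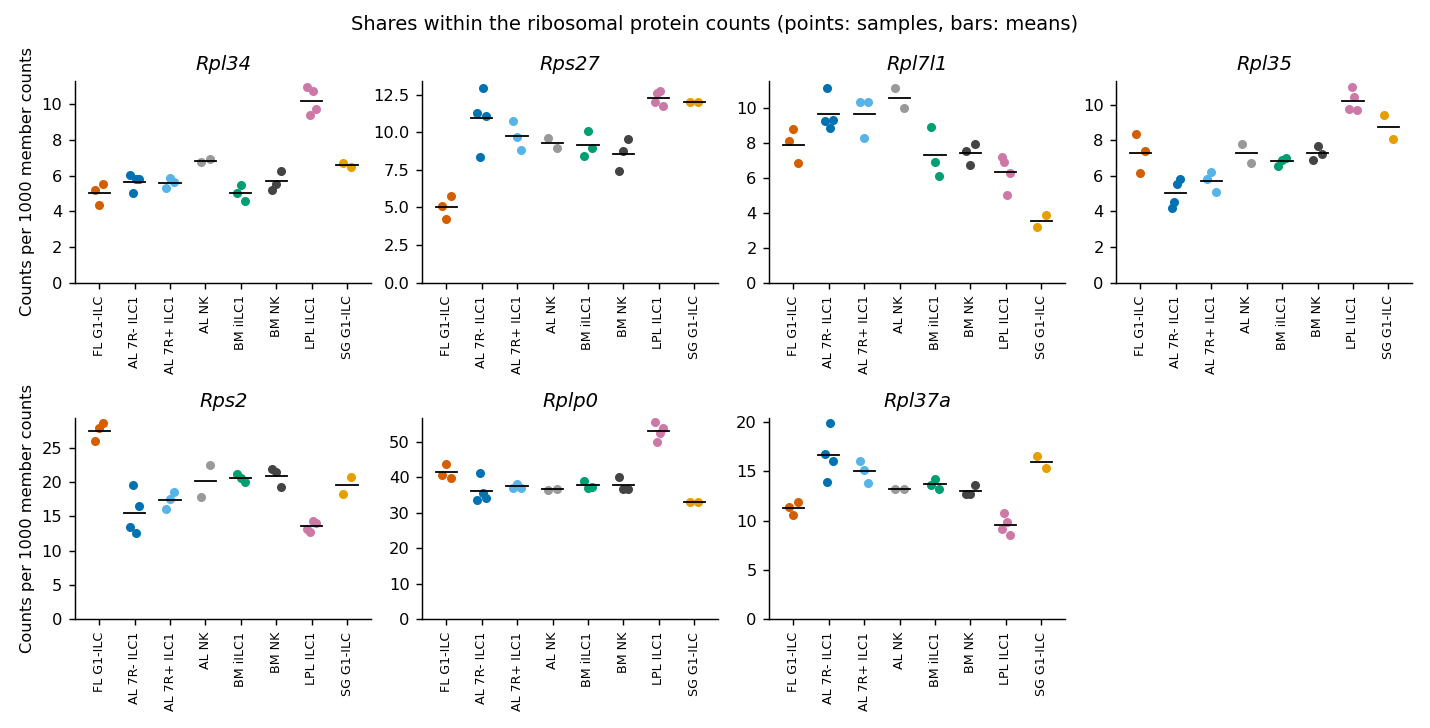
Share of the ribosomal protein counts, per 1000, for members with the smallest p in the test of shares, with 1 point a sample in each of the 8 groups and bars at the group means. Rps27 is lowest in FL G1-ILCs (5.04 per 1000 on average), Rpl34 and Rplp0 are highest in LPL ILC1s, and Rpl7l1 is lowest in SG G1-ILCs (3.52 per 1000).

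Paralogs were then set against their core partners as ratios of CPM within each sample, which no scaling changes. Because the pairs were chosen with results of these data known, the ratios are a description with no test. Rps27l stood at 0.960 ± 0.135 per Rps27 in FL G1-ILCs (0.837 to 1.10) and at 0.228 to 0.456 on average in the other 7 groups, where no sample exceeded 0.494. Rpl22l1 per Rpl22 was 0.722 ± 0.034 in LPL ILC1s (0.675 to 0.754) and 0.341 to 0.577 on average elsewhere. The exception was AL 7R- ILC1 replicate 2, at 1.04, in which Rpl22 was 26.4 CPM where the other 3 samples of the group had 52.7 to 56.8 CPM. Rpl36al per Rpl36a was 1.06 and 1.33 in the SG samples and 1.70 to 2.65 on average elsewhere, BM NK cells reaching down to 1.30. Rpl7l1 per Rpl7 was 0.139 and 0.169 in the SG samples and at least 0.271 in every other sample. Among copies with near-identical sequence, Rps27rt stood at 0.0969 to 0.127 per Rps27, Rpl10-ps3 at 0.0253 to 0.0336 per Rpl10 and Rpl9-ps6 at 0.0678 to 0.0854 per Rpl9 on group average. The copies with few counts varied more, with Rps12-ps3 (133 counts over all libraries) at 0.0303 to 0.0601 per Rps12 and Rpl36a-ps1 (149 counts) at 0.0212 to 0.0348 per Rpl36a on group average. For all these pairs shared reads cannot be told apart from expression.

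**Figure D4:**
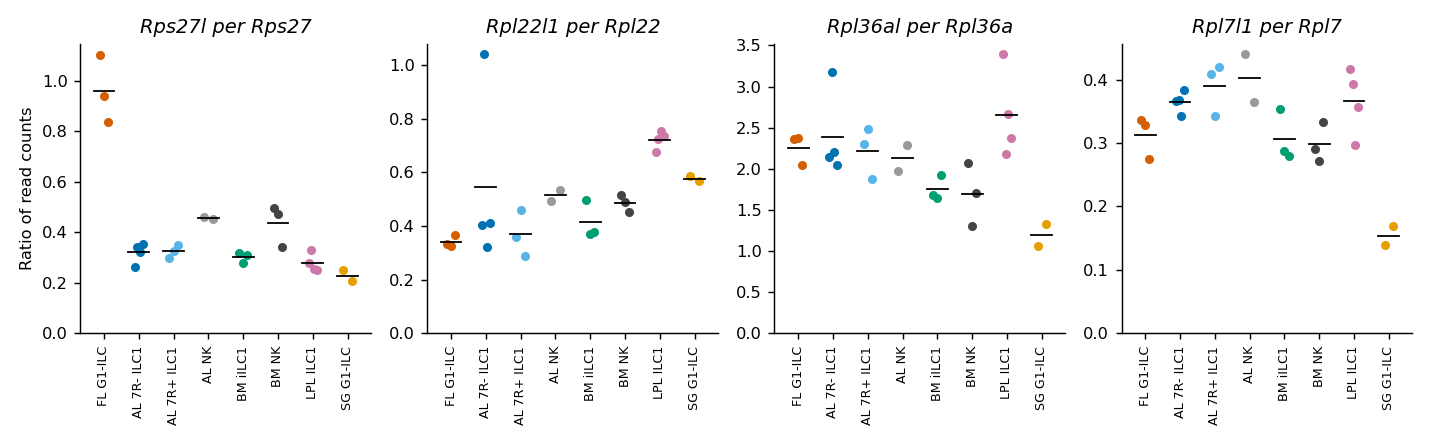
Ratio of the read count of a paralog to that of its core partner in each sample, with 1 point a sample, grouped by the 8 sorted populations, and group means. Rps27l per Rps27 is highest in FL G1-ILCs (0.837 to 1.10), Rpl22l1 per Rpl22 is 0.675 to 0.754 in LPL ILC1s, and Rpl36al per Rpl36a and Rpl7l1 per Rpl7 are lowest on average in SG G1-ILCs.

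Of the stalk genes, all 3 were higher in SG G1-ILCs. Rplp0 was higher in FL, SG and LPL cells than in the adult liver cells they were compared with (log2 fold changes 1.11, 0.80 and 0.97). Rplp2 was higher in the first 2 (0.63 ± 0.13, adjusted p = 0.000260, and 0.61 ± 0.15, adjusted p = 0.00199) and stood at 0.18 ± 0.13 in LPL ILC1s (adjusted p = 0.256). Rplp1 stood at 0.32 ± 0.14 in FL (adjusted p = 0.0608) and was higher in SG (0.66 ± 0.15, adjusted p = 0.00117) and LPL cells (0.62 ± 0.14, adjusted p = 0.000467), the last not without the scaling factor (0.15, adjusted p = 0.352). Rpsa, a 40S protein also known as the laminin receptor, was higher in FL (1.07 ± 0.12, adjusted p = 2.59e-08) and SG cells (0.68 ± 0.13, adjusted p = 0.000167). In LPL ILC1s it stood at 255, 287, 384 and 349 CPM against 326, 332 and 392 CPM in AL 7R+ ILC1s, with overlap. Without the scaling factor Rpsa was called lower there (-0.61, adjusted p = 8.14e-05).

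Members were also split by the presence of a pyrimidine run at the start. In the fetal comparison the median log2 fold change was 0.94 over the 48 tested members with a run of 8 or more and 0.87 over the 15 without, in the SG comparison it was 0.98 and 0.83, and in the LPL comparison 0.49 and 0.47. In the other comparisons the medians with and without a run were furthest apart when AL 7R- ILC1s were set against AL NK cells (-0.07 and 0.04) and BM iILC1s against AL 7R+ ILC1s (0.22 and 0.14). Members with and without CCGGAAG had medians of 0.98 (25 genes) and 0.89 (38 genes) in the fetal comparison. These medians are given without a test.

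Other genes of translation and ribosome assembly were read from lists drawn up beforehand with earlier results of these data known. Of the ribosomal protein genes outside the symbol rule, Rack1 was higher in FL, SG and LPL cells (1.29, 0.74 and 0.73, adjusted p = 4.02e-10, 2.92e-05 and 5.54e-06). Fau was higher in the same comparisons (0.57, 0.70 and 0.47, adjusted p = 0.000456, 0.000263 and 0.00273). Without the scaling factor neither gene was called in LPL ILC1s. Of 20 other genes with TOP mRNAs, mostly translation factors, 19 were higher in FL G1-ILCs (22.4% of all genes) and 17 in SG G1-ILCs (17.8%). In both 0 were lower with edgeR (20.2% and 14.6% of all genes), and 0 also without the scaling factor. In LPL ILC1s 16 were higher and 0 lower (24.8% and 26.2% of all genes), or 5 and 3 without the scaling factor (13.8% and 43.0%). Cnbp, a nucleic acid binding protein, and Gas5, host of small nucleolar RNAs, differed most there (1.99 and 1.57, adjusted p = 3.55e-19 and 1.50e-13).

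Ribosome assembly genes were read in the same comparisons, with no test of their difference from the ribosomal proteins. Of 39 tested nucleolar, assembly and RNA polymerase I genes, 34 were higher and 0 lower in FL G1-ILCs (22.4% and 20.2% of all genes), with a median log2 fold change of 1.27, and the call was 34 and 0 without the scaling factor too. Npm1, an abundant nucleolar chaperone, stood at 746 ± 13.0 CPM (n = 3) against 201 ± 9.60 CPM (n = 4) in AL 7R- ILC1s (1.90, adjusted p = 1.31e-14). In SG G1-ILCs, whose ribosomal protein level overlapped that of the fetal cells, 10 were higher and 3 lower (17.8% and 14.6% of all genes), with a median of 0.13. The 3 lower ones were Nat10, Nip7 and Rrp9. In LPL ILC1s 14 were higher and 10 lower with scaling (24.8% and 26.2% of all genes) and 9 and 20 without it (13.8% and 43.0%). There Polr1a, the largest subunit of RNA polymerase I, was lower (-1.74, adjusted p = 9.83e-07) while Taf1d, a subunit of its selectivity factor, was higher (1.52, adjusted p = 1.54e-08). Across the remaining comparisons between 0 and 8 of the 39 passed in either direction, the most being the 8 that were lower when AL 7R- ILC1s were set against AL NK cells (10.5% of all genes).

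Among 16 regulators, Myc stood at 2136 ± 286 CPM (n = 4) in LPL ILC1s and 170 ± 10.4 CPM (n = 3) in AL 7R+ ILC1s (3.65, adjusted p = 1.00e-17), at 263 ± 18.1 CPM in FL G1-ILCs and at 94.3 ± 11.4 CPM in AL 7R- ILC1s (1.48, adjusted p = 2.04e-10), and at 133 ± 13.6 CPM in SG G1-ILCs (0.50, adjusted p = 0.00728). The part of Myc in the ribosomal protein levels was not tested. Mxd1, which competes with Myc for its partner Max, was higher in LPL (4.60, adjusted p = 3.06e-18) and SG cells (2.60, adjusted p = 1.33e-13), and Mxd4, of the same family, was lower in FL (-1.91, adjusted p = 3.31e-14) and LPL cells (-0.94, adjusted p = 2.76e-09). Larp1, which binds TOP mRNAs, was higher in FL G1-ILCs (0.78, adjusted p = 0.000164). Of the 16, 4 were higher and 2 lower in FL (22.4% and 20.2% of all genes), 4 and 0 in SG (17.8% and 14.6%) and 4 and 4 in LPL cells (24.8% and 26.2%). Without the scaling factor the counts were 4 and 5, 3 and 1, and 3 and 6, the last against 13.8% and 43.0% of all genes. How these counts stand against the shares over all genes was not tested.

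**Figure D5:**
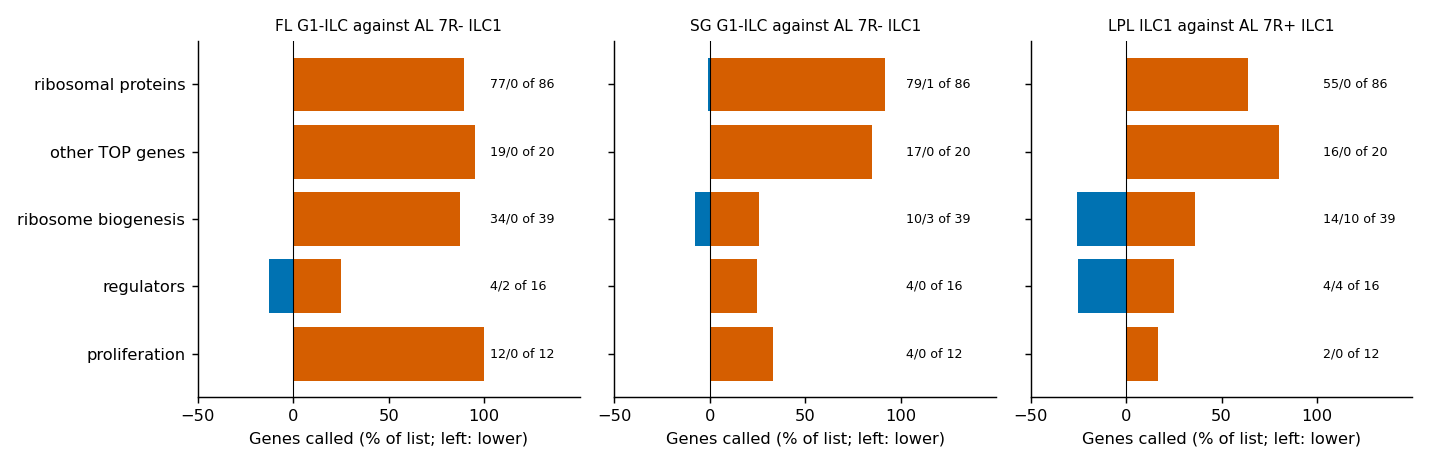
Share of the tested genes of each list that was called higher (bars to the right, in percent) or lower (bars to the left) in the FL, SG and LPL comparisons after TMM scaling, with the counts higher and lower beside the bars. The assembly genes have 34 of 39 higher in FL but 10 in SG and 14 in LPL cells, where 77, 79 and 55 of 86 ribosomal proteins were higher (22.4%, 17.8% and 24.8% of all genes). The LPL counts fall to 9 and 12 without the scaling factor.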

How the data were processed

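The deposited table held raw counts of reads per gene, which the authors made, per the labels and the study's methods, from SMART-seq HT libraries of sorted cells with fastp 0.23.0, HISAT2 2.1.0 and featureCounts of Subread 1.6.5 on mm10. The annotation release and the strand and multi-mapping settings are not given in the sources used here, and they decide how reads of near-identical copies were counted. Symbols, biotypes and exon lengths came from GENCODE vM21 (GRCm38), in which 849 rows (0.104% of counts) found no match and stayed in the library sizes.

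From these counts, levels were computed as CPM after TMM scaling, and per kb of merged exons where genes were compared. Genes passing filterByExpr (minimum count 10) were tested with edgeR 4.0.16 quasi-likelihood in R 4.3.3 over all 8 groups. P-values were Benjamini-Hochberg adjusted over all 14123 genes tested, and adjusted p under 0.05 was called. A standard error is the log2 fold change divided by the square root of F. Shares were tested in the same model with the summed ribosomal protein count as library size. Totals of 3752189 to 7995906 counts a sample set the precision, and copies were found by sequence alignment of transcripts.

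Named genes were the stalk genes and Rpsa, all non-core members with their core partners, up to 5 called members per direction and comparison with the largest fold change, the 8 with the smallest p for shares, and the 3 highest and 3 lowest per kb; results of some of these genes are not reported here. The members, lists and tests were chosen with earlier results of these data known, so no list is independent evidence. Alternatives were DESeq2 1.42.0, other scalings and filters, a replicate block, all 25 libraries, the compared groups only, a fold limit and leaving out each sample. Pseudogene counts added, no scaling factor and the DESeq2 interaction were chosen after seeing the data.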

Additional observations from a re-analysis of the deposited data

Results flagged for a closer look

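Of 84 group values tested for one sample standing apart by Dixon's criterion, 3 exceeded its 95% limit, and chance alone gives about 1 in 20. Rpl22, the partner of Rpl22l1, stood at 26.4 CPM in AL 7R- ILC1 replicate 2, where the other samples of the group had 52.7 to 56.8 CPM. Rplp2 stood at 85.8 CPM in the same sample against 122 to 129 CPM. This sample also had the lowest summed level of the series, 11767 CPM. Rpl22 stood at 84.5 CPM in LPL ILC1 replicate 3 against 58.1 to 62.4 CPM, and this sample had the highest sum of its group, 22458 CPM. Without AL 7R- ILC1 replicate 2, 76 members were higher in FL and 77 in SG G1-ILCs. What set these samples apart was not tested.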

How the results depend on the processing

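Counts of called members and summed levels kept within 1.5 times, or 1 SD, of the values above in 212 of 252 cases over the alternatives other than leaving out a sample, and in 471 of 504 when a sample was left out. Of 35 single named results, 1096 repeats kept the call, 94 lost it and 0 changed direction, the 2-fold limit not being applied to them. The balance of the members in LPL ILC1s turned without the scaling factor, from 55 higher and 0 lower to 12 higher and 19 lower. The comparisons within an organ and between marrow and liver rest on few samples, and the LPL comparison on the scaling. The cause of the other changes was not tested.

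With a 2-fold limit, members higher numbered 30 in FL, 33 in SG and 4 in LPL cells, and 0 in either direction in AL 7R+ against AL 7R- ILC1s, AL 7R- ILC1s against AL NK cells, BM iILC1s against BM NK cells or AL 7R+ ILC1s, and BM NK against AL NK cells, with 0 lower in SG G1-ILCs. DESeq2 called 2 higher in AL 7R+ against AL 7R- ILC1s and 25 in BM NK against AL NK cells. With no filter 0 were higher in AL 7R+ against AL 7R- ILC1s, 0 higher and 2 lower in AL 7R- ILC1s against AL NK cells, 2 higher in BM iILC1s against AL 7R+ ILC1s, and in LPL ILC1s 33 higher and 2 lower, and 33 shares differed. Without the scaling factor 2 were higher in AL 7R+ against AL 7R- ILC1s, 1 in AL 7R+ ILC1s against AL NK cells, 25 in BM NK against AL NK cells and 12 in LPL ILC1s, and 0 were lower in BM iILC1s against BM NK cells and 19 in LPL ILC1s. With only the compared groups fitted, AL 7R- ILC1s against AL NK cells gave 0 higher and 3 lower and BM NK against AL NK cells 22 higher. With RLE size factors 0 were lower in BM iILC1s against BM NK cells.

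The summed level in FL G1-ILCs was 25030 CPM with RLE factors and 27430 CPM with copies added. In AL NK cells it was 14120 CPM over core members and 15290 CPM with copies. Without the scaling factor it was 15840 CPM in AL 7R+ ILC1s, 15210 CPM in AL NK cells, 19140 CPM in BM iILC1s, 20800 CPM in BM NK cells and 15820 CPM in LPL ILC1s.

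Replicate numbers recur across groups, but samples with the same number did not deviate together (mean correlation -0.00619 against 0.00236 for different numbers, 69 pairs), so they share only a number. With the replicate block 0 members were higher in AL 7R- ILC1s against AL NK cells and 1 lower in BM iILC1s against BM NK cells.

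Leaving out each sample in turn gave the following ranges, where AL NK or SG cells left with 1 sample were assumed to vary like the other groups. Members higher were 75 to 78 in FL, 67 to 80 in SG and 49 to 60 in LPL cells, and lower 0 to 1, 1 to 1 and 0 to 1. In AL 7R+ against AL 7R- ILC1s 0 to 2 were higher and 0 to 1 lower, in AL 7R- ILC1s against AL NK cells 0 to 4 higher and 1 to 7 lower, in BM iILC1s against BM NK cells 0 to 3 lower, in BM iILC1s against AL 7R+ ILC1s 2 to 11 higher and in BM NK against AL NK cells 2 to 19 higher. Of the members, 82 to 84 differed in level and 54 to 62 in share among the groups.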
